A study of Mus musculus with 12 samples.

Results

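The comparison set 8 libraries of the edited RAW264.7 lines, 4 labelled Ing4-/- and 4 labelled Socs1-/-, against 4 libraries of wild-type RAW264.7 cells, and asked which expression differences the edited lines had in common. RAW264.7 is an established line of mouse macrophages. The series holds 12 RNA sequencing libraries in 6 groups of 2: the Ing4 knockout, the Socs1 knockout and the wild type, each untreated or exposed for 3 h to 100 ng/ml lipopolysaccharide (LPS), the bacterial outer membrane molecule that Toll-like receptor 4 detects. Libraries were assigned to the edited or the wild-type side by their labels, and all 12 entered 1 model with treatment as a covariate. Expression is given as CPM (counts scaled to a fixed library size), and differences are log2 values of both knockouts minus wild type.

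Macrophages engulf particles, present antigen and release chemokines, small secreted proteins that draw other white cells. Ing4 binds methylated histone H3 tails as a subunit of HBO1 histone acetyltransferase complexes, while Socs1 is made in response to cytokines and blocks JAK kinases. The proteins act at different points, in chromatin and in cytokine signalling. Cultured lines are known to drift, and lines grown from an edited cell also carry the state of that cell. The labels name 1 line per genotype and no clone, parent passage or editing control. Loss of a gene, the editing procedure and a difference between lines therefore cannot be told apart here, nor can it be told whether the edited or the wild-type cells left the state of a common parent. The labels do not state whether paired libraries come from separate cultures, so p-values reflect only the spread among these libraries.

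Depth was 17250815 to 24377950 counts per library. The first LPS library of the Socs1 knockout stood apart: on a first principal component holding 54.4% of the variance it lay at -16.2, while the other 5 LPS libraries lay between 62.4 and 74.4 and the untreated libraries between -66.1 and -41.7. Libraries of a genotype that carry the same replicate number resembled each other across treatments, with correlations of 0.447 to 0.601 between their differences within the pairs over genes, which are not independent replicates. The targeted transcripts do not check the edits. Ing4 had 0.262, 1.34, 0.285 and 0.554 CPM in Ing4 knockout libraries, against 0.439, 0.226, 0.322 and 0.101 CPM in wild type, which was only 2 to 10 counts per wild-type library. Socs1 had 2.73 and 7.14 CPM in Socs1 knockout cells after LPS, against 9.08 and 9.08 CPM in wild type after LPS. In both knockouts together neither gene passed the test (Ing4 log2 difference 1.23 ± 0.53 SE, edgeR adjusted p = 0.258; Socs1 -0.16 ± 0.35, adjusted p = 0.849). All 9 macrophage markers were expressed, with summed levels of 11103 to 21063 CPM in knockout libraries and 10005 to 12119 CPM in wild type. Of 9 T, B and NK cell markers 7 were at 0 in every library, among them Cd3e. Neutrophil markers summed to at most 3.27 CPM in knockout and 2.2 CPM in wild-type libraries, and mast cell, fibroblast, epithelial and erythroid markers to less. Dendritic cell markers summed to 4.54 to 45.3 CPM in the knockouts and 11.6 to 52.1 CPM in wild type, with Flt3 at 0 throughout, and their part in the results was not tested.

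More of the genes that passed the test were lower than higher in the edited lines. In bulk RNA, fewer cells that express a gene and less RNA per cell cannot be told apart. Of 12771 tested genes 238 (1.86%) were lower and 70 (0.548%) higher in the knockouts at an edgeR adjusted p of 0.05, which is 2.41% in either direction. DESeq2 called 495 lower and 306 higher, and 81 of the 238 lower genes lie on 2 stretches of chromosome described later. Over all tested genes 5947 were below 0. The median size was 1.11 log2 units among the lower genes (0.56 in the stretches and 2.08 outside) and 0.79 among the higher genes. In 31 lower and 5 higher genes the difference reached 4 log2 units. These sizes are not a like comparison. Among the lower genes 11 had at most 3 counts in the knockouts. Such genes passed the filter through wild type and could be called only as lower. In 234 of the 238 lower genes and 66 of the 70 higher genes, all 4 knockout libraries lay on the same side of both wild-type libraries in both treatments. Over all tested genes that held for 4.56% in the lower and 3.16% in the higher direction. The calls and this separation use the same values, so the separation largely follows from being called. Both lines were set against the same 4 wild-type libraries. A direct edgeR test between the lines called 1 of the 308, Dner, which was not called with libraries grouped by culture. Over all tested genes that test called 120 (0.94%). The main model counts the spread between the lines as error, so genes that differ between them were less likely to enter the 308. The count of 1 therefore does not show that the lines agree.

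The wild-type side, with 4 libraries, carried much of the weight. Without wild-type untreated replicate 1 or 2 the count was 196 or 96, and without wild-type LPS replicate 1 or 2 it was 191 or 96. Without the Socs1 knockout LPS library that stood apart it was 465. When same-numbered libraries of a genotype were treated as 1 culture (limma-voom with an estimated correlation of 0.528), the count was 114 (0.893%), with 102 lower and 12 higher genes, and 106 of these were among the 308. Of 51 called genes named here by a fixed rule, 24 kept their call without each library in turn, and 22 of those also kept it with libraries grouped by culture. Grouping by culture ended 22 of the 51 calls, among them those of H2-T23, Psmb8, Irf3, Ccl12, Mmp9, Bmpr2, Ctsh, Neu1, Cebpz, Itgb3, Rac2, Tagln2, Arhgap15, Crlf2, Ccdc85c, Col15a1, Sort1, Adgrl1, Tmem26, Ocstamp and Hpgd.

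Cers4, which encodes a ceramide synthase of sphingolipid metabolism, had the smallest p of the comparison. It had 0.0872, 0.277, 0.19 and 0.111 CPM in Ing4 knockout libraries and 0.173, 0.0996, 0.122 and 0.112 CPM in Socs1 knockout libraries, against 6.85, 6.43, 10.7 and 10.0 CPM in wild type. Every knockout library was thus far below every wild-type library, and the log2 difference was -5.77 ± 0.27 (SE, edgeR adjusted p = 1.18e-06). Exons of 2 genes on the other strand overlap Cers4, and whether the authors counted by strand is not stated in these sources. Cers4 was the only called member among 29 tested sphingolipid genes, whose median difference was 0.09, against 0.02 for all tested genes.

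Pf4, a chemokine best known from platelets, ranked close behind. Its level was 0.218, 0.184, 0.143 and 0.277 CPM in the Ing4 knockout and 0.0867, 0.0996, 0.0815 and 0.337 CPM in the Socs1 knockout, against 2.94, 3.85, 4.51 and 4.26 CPM in wild type (log2 difference -4.43 ± 0.31, edgeR adjusted p = 5.09e-05). The groups did not overlap in either treatment. For Cers4 and Pf4 that was a condition of being named among the leading lower genes.

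The promoters of Cers4, Pf4 and Ccl12, a chemokine described next, are shown as examples from 3 different chromosomes. All 3 genes had low expression in every knockout library, as did other lower genes. Ccl12 was also low in untreated wild type, at 0.0878 and 0 CPM. The promoters are RefSeq sequences of build GRCm38.p6, all on the plus strand, from 250 bases before to 50 after the start of transcription. Promoters were given for 9323 of the 12771 tested genes. Capitals mark matches on either strand to a GC box (GGGCGG, in 64.4% of the tested genes' promoters), a CCAAT box (CCAAT, in 39.4%), a PU.1 core (GAGGAAGT, in 3.45%) and a TATA box (TATAAA, in 7.06%). The letters of AP-1 (TGANTCA) and CRE (TGACGTCA) were searched too, and no window held them. The Cers4 promoter lies at chr8:4493155-4493454, that of Pf4 at chr5:90772185-90772484 and that of Ccl12 at chr11:82101595-82101894.
Cers4: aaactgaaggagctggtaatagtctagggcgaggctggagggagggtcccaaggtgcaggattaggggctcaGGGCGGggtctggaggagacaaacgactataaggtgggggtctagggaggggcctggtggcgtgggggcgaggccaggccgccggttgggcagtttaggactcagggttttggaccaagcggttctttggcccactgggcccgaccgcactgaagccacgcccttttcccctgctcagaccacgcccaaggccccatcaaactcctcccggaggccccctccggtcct
Pf4: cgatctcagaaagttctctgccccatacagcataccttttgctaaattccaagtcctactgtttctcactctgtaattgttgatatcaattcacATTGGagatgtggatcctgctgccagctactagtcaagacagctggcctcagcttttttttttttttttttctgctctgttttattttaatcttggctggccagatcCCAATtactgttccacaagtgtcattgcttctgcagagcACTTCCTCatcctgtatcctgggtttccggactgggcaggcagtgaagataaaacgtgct
Ccl12: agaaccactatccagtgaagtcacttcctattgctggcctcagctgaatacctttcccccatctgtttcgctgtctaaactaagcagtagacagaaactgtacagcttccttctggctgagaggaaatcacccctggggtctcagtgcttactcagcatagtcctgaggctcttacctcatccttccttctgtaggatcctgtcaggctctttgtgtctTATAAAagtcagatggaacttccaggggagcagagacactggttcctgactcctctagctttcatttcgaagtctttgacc
Cers4 held 1 GC box match and Pf4 held a PU.1 core match and 2 CCAAT matches, while Ccl12 held 1 TATA match near its start. No motif was found in all 3 windows, and a match is only a run of letters.

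Of 18 tested chemokine genes 4 were lower and none higher: Pf4, and the neighbours Ccl2, Ccl7 and Ccl12, which attract monocytes. The median of the list was -0.89, with 14 of 18 members below 0. Over all tested genes 1.86% were lower, 0.548% higher and 5947 of 12771 below 0. DESeq2 called 6 of the chemokine genes lower and 1 higher. With limma-voom, or edgeR with upper-quartile scaling, 4 were lower and 1 higher, and with a mean for each group 2 and 1. The 3 neighbours are adjacent among tested genes within chr11:82035571-82103400. Ccl2 had 0.218 and 1.29 CPM in untreated Ing4 knockout libraries and 3.77 and 0.199 CPM in untreated Socs1 knockout libraries, against 9.4 and 6.84 CPM in untreated wild type. After LPS it had 44.2 and 91.1 CPM in the Ing4 knockout and 14.8 and 61.0 CPM in the Socs1 knockout, against 528 and 722 CPM in wild type. Every LPS library thus had more Ccl2 than every untreated library, and in both treatments all knockout libraries lay below wild type (log2 difference -3.14 ± 0.59, edgeR adjusted p = 0.0174). Ccl7 was nearly confined to LPS libraries, where it had 0.937 to 7.99 CPM in the knockouts, against 28 and 43 CPM in wild type (-3.21 ± 0.58, adjusted p = 0.0144). Ccl12 was low throughout, at 0 to 0.281 CPM in the knockouts and 1.61 and 1.83 CPM in wild type after LPS (-3.22 ± 0.74, adjusted p = 0.0445). With 1 library left out, the adjusted p of Ccl2 was 0.0773 without wild-type LPS replicate 2 and 0.0512 without wild-type untreated replicate 2. That of Ccl7 was 0.105 without wild-type LPS replicate 2, and that of Ccl12, whose call ended without any of 8 libraries, reached 0.217. Ccr1, a receptor for inflammatory chemokines, was lower too, at 0.0498 to 2.08 CPM in the knockouts, against 4.7, 9.87, 7.79 and 13.0 CPM in wild type (-3.32 ± 0.58, adjusted p = 0.0131, up to 0.0677 without wild-type untreated or LPS replicate 2).

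**Figure D1:**
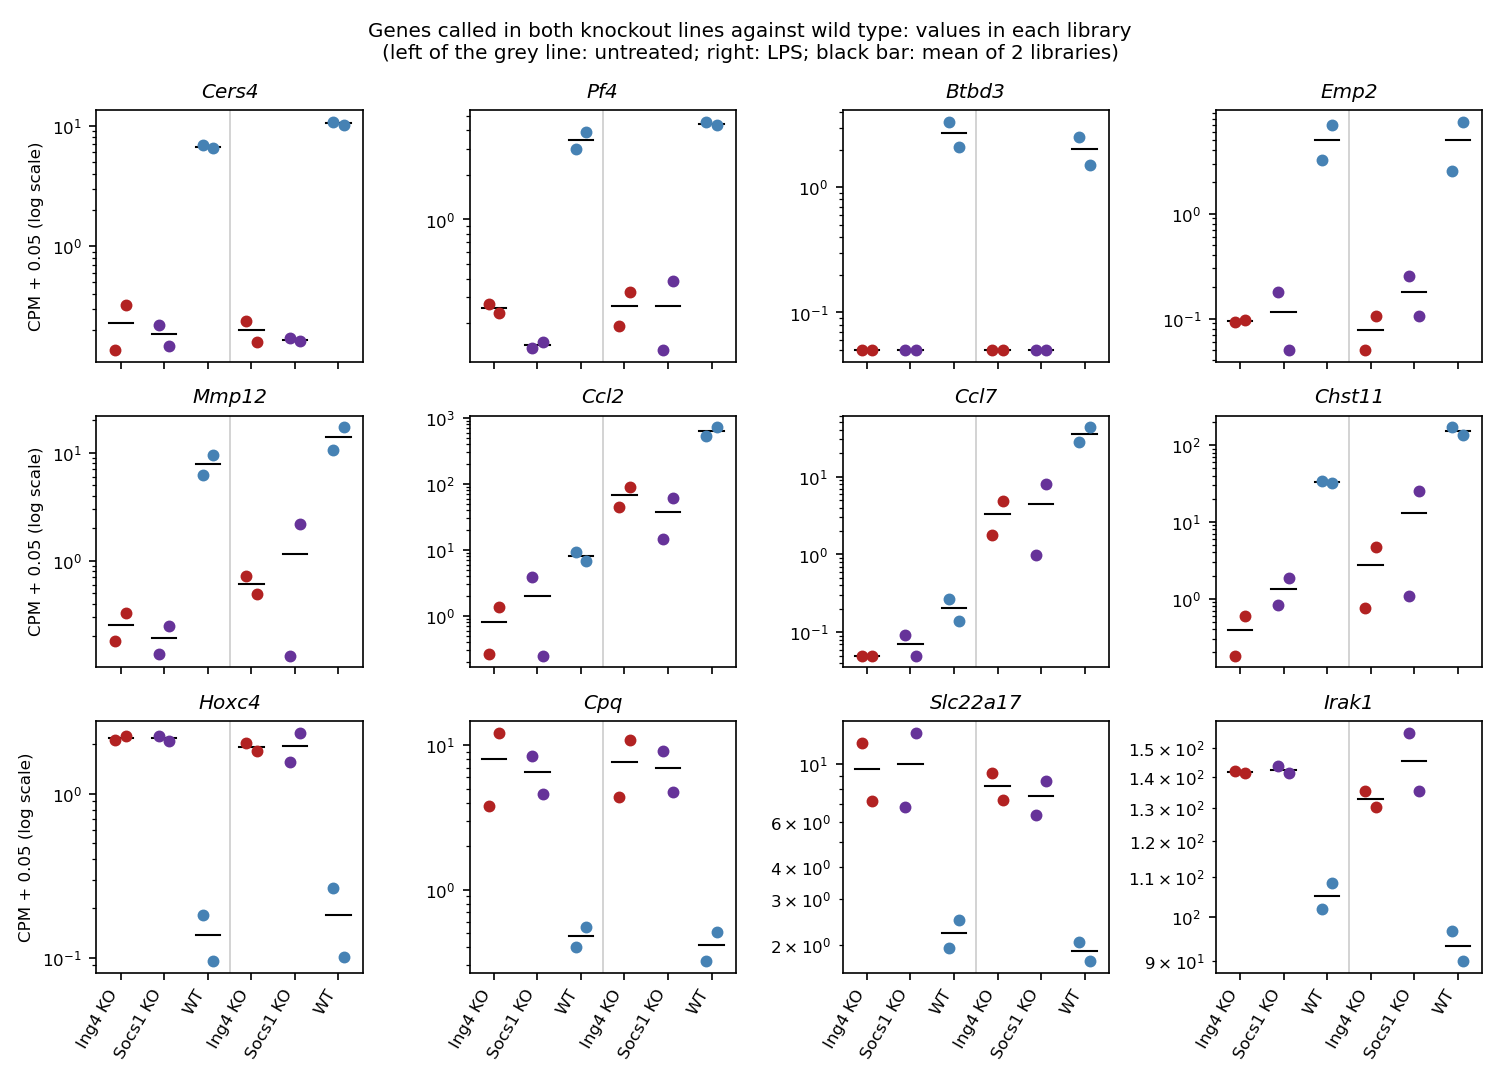
CPM plus 0.05 on a log scale for 12 genes called in the knockouts against wild type, with 1 point per library (red Ing4 knockout, purple Socs1 knockout, blue wild type), untreated libraries left of the grey line, LPS libraries right of it, and bars for means of 2. Knockout points of Cers4, Pf4 and Btbd3 lie far below the wild-type points in both treatments, and those of Hoxc4, Cpq and Slc22a17 lie above them.

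Of 33 tested genes of extracellular matrix, adhesion and matrix proteases 5 were lower and none higher, and the median was -0.16. The lower share of all tested genes was 1.86%. Mmp12, the macrophage elastase, had 0.0815 to 2.14 CPM in the knockouts with a median of 0.238, against 6.1, 9.46, 10.6 and 17.1 CPM in wild type (-4.71 ± 0.57, edgeR adjusted p = 0.00157). The highest knockout library, Socs1 knockout LPS replicate 2, was still below the lowest wild-type library. Separation within each treatment was a condition of its place among the leading lower genes. Col18a1, whose collagen chain releases endostatin, had 1.89 to 5.65 CPM in the knockouts, against 13.3, 7.06, 19.3 and 17.5 CPM in wild type (-2.08 ± 0.24, adjusted p = 0.00105). Mmp9, a gelatinase, had 0.174 to 12.6 CPM in the knockouts, against 1.1, 13.0, 36.1 and 149 CPM in wild type (-3.67 ± 0.70, adjusted p = 0.0195). The Mmp9 ranges overlap when treatments are pooled and are apart within each treatment. Mmp14, a membrane-bound protease, had 1.14 to 3.99 CPM in the knockouts after LPS, against 9.46 and 19.2 CPM in wild type (-2.70 ± 0.49, adjusted p = 0.0142). The adjusted p reached 0.135 for Mmp9 and 0.1 for Mmp14 without wild-type LPS replicate 2, and Mmp9 also lost its call without wild-type untreated replicate 2. With libraries grouped by culture the adjusted p of Mmp9 was 0.111. The last called gene, Tnc, encodes the matrix protein tenascin C and averaged 3.09 CPM in the knockouts and 29.5 CPM in wild type (-3.89, adjusted p = 0.0458). DESeq2 called 5 genes of the list lower and 2 higher. Without a filter edgeR called 3 of 53 lower and none higher, and the median was 0.005.

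Among growth factor receptors and ligands 3 of 34 tested genes were lower and 1 higher. Shares of all tested genes were 1.86% lower and 0.548% higher. The list had a median of 0.00 that changes sign with the scaling. Flt1, a receptor for vascular endothelial growth factor, had 0.698 to 4.78 CPM in the knockouts, against 6.76, 5.52, 11.8 and 9.54 CPM in wild type (-2.29 ± 0.31, edgeR adjusted p = 0.00333). Notch1, a receptor of cell contact signalling, had 0.0461 to 4.39 CPM in the knockouts, against 3.21, 3.12, 15.4 and 14.8 CPM in wild type (-3.03 ± 0.56, adjusted p = 0.0154). Vegfc, a ligand of lymphatic vessel growth, had 0 to 0.554 CPM in the knockouts, against 0.132, 0.725, 1.72 and 3.09 CPM in wild type (-3.06 ± 0.57, adjusted p = 0.0172). The calls of Notch1 and Vegfc ended without wild-type untreated or LPS replicate 2, with adjusted p up to 0.0692 and 0.113. Bmpr2, a receptor for bone morphogenetic proteins, was higher at 45.5 to 61.7 CPM in the knockouts, against 38.0, 34.7, 34.6 and 44.8 CPM in wild type (0.45 ± 0.10, adjusted p = 0.0373), and lost its call without any of 9 libraries, with adjusted p up to 0.148.

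Genes of cell fusion and the osteoclast program, a fate that RAW264.7 cells can take, did not move one way. Of 16 tested genes 3 were lower (Dcstamp, Mmp9, Itgb3) and 1 higher (Ocstamp), with a median of 0.12. Shares of all tested genes were 1.86% lower and 0.548% higher. Summed marker levels overlapped at 924 to 2541 CPM in the knockouts and 1317 to 2102 CPM in wild type. Dcstamp, needed for cell fusion, had 8.5 to 22 CPM in untreated knockout libraries, against 46.3 and 59.8 CPM in wild type, and 22.6 to 45.0 CPM in the knockouts after LPS, against 86.5 and 94.7 CPM in wild type (-1.75 ± 0.26, edgeR adjusted p = 0.00539). Ocstamp, its partner in fusion, went the other way, at 1.48 to 5.58 CPM in untreated knockouts, against 0.746 and 0.86 CPM in wild type, and 8.46 to 20.0 CPM in the knockouts after LPS, against 4.35 and 2.74 CPM in wild type (2.18 ± 0.37, adjusted p = 0.0112, up to 0.0601 without wild-type untreated or LPS replicate 2). Itgb3, an integrin chain, totalled 5 counts in the 8 knockout libraries (-4.09 ± 0.82, adjusted p = 0.024). In wild type it had 1.19 and 0.806 CPM in the first libraries and 0.181 and 0.152 CPM in the second, and its call ended without either first library, with adjusted p up to 0.116.

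Of 40 tested lysosome and autophagy genes 3 were lower and none higher, Ctsl, Ctsh and Neu1, and the list's median was 0.06. The lower share of all tested genes was 1.86%. DESeq2 called 3 of the list lower and 1 higher. Ctsl, cathepsin L, had 193 to 558 CPM in the knockouts with a median of 353, against 644, 548, 871 and 951 CPM in wild type (-1.12 ± 0.20, edgeR adjusted p = 0.0143, 0.0731 without wild-type LPS replicate 2). A gene on each strand overlaps its exons. Ctsh, cathepsin H, had 0.0436 to 0.599 CPM in the knockouts, against 8.3, 0.86, 5.05 and 1.12 CPM in wild type, so the wild-type libraries differed from each other by replicate (-3.38 ± 0.62, adjusted p = 0.0157, up to 0.0912 without wild-type untreated or LPS replicate 1). Neu1, a sialidase, had 36.8 to 82.1 CPM in the knockouts, against 97.8, 137, 68.6 and 109 CPM in wild type (-0.72 ± 0.17, adjusted p = 0.0488), and its call ended without any of 11 libraries, with adjusted p up to 0.237.

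Other genes at the head of the lower set serve several functions. Emp2, a membrane protein of the tetraspan kind, had 0 to 0.204 CPM in the knockouts, against 3.16, 6.88, 2.47 and 7.46 CPM in wild type (-6.05 ± 0.56, edgeR adjusted p = 0.000301). Chst11, a sulfotransferase of chondroitin sulfate synthesis, had 0.131, 0.553, 0.713 and 4.71 CPM in the Ing4 knockout and 0.781, 1.79, 1.02 and 24.9 CPM in the Socs1 knockout, against 33.9, 31.6, 171 and 136 CPM in wild type (-4.79 ± 0.78, adjusted p = 0.0104). Cd24a, a small surface glycoprotein, had 0.0461 to 1.83 CPM in the knockouts, against 47.0, 13.7, 19.5 and 6.59 CPM in wild type (-4.45 ± 0.59, adjusted p = 0.00329). Groups did not overlap for any of these genes, which their naming required within each treatment. Gypc, a glycoprotein of the membrane skeleton, had 0.305 to 4.33 CPM in the knockouts, against 7.68, 11.2, 35.3 and 76.0 CPM in wild type (-3.88 ± 0.39, adjusted p = 0.000616). Maf, a transcription factor of macrophage differentiation, totalled 11 counts in the 8 knockout libraries, against 1.58, 1.86, 2.53 and 1.57 CPM in wild type (-4.73 ± 0.65, adjusted p = 0.00371). Prkg2, a kinase activated by cyclic GMP, was at 0 in all 4 untreated knockout libraries, against 0.966 and 1.49 CPM in wild type, and had 0.0562 to 0.448 CPM in the knockouts after LPS, against 3.87 and 13.2 CPM in wild type (-5.34 ± 0.56, adjusted p = 0.000616). Abtb2 had 0.0436 to 6.31 CPM in the knockouts, against 4.48, 9.28, 32.8 and 41.3 CPM in wild type (-4.05 ± 0.59, adjusted p = 0.00517). Hpgd, which inactivates prostaglandins, had 0 to 0.996 CPM in the knockouts, against 14.8, 2.54, 0.699 and 0.101 CPM in wild type (-4.89 ± 0.86, adjusted p = 0.0137, 0.0919 without wild-type untreated replicate 1).

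For 6 lower genes the 8 knockout libraries held no count. Such genes passed the expression filter only through wild-type libraries, so they could be called only as lower. Btbd3, a BTB domain protein studied in neurons, had 3.29, 2.04, 2.47 and 1.47 CPM in wild type. Set against a floor of 3 counts over the 8 knockout libraries, it was at least 132-fold lower in the knockouts (edgeR adjusted p = 0.00579). Shc2, an adaptor of receptor tyrosine kinases, was at least 65.1-fold lower, and Npy, neuropeptide Y, at least 59.0-fold lower. The others, Maged1, Zfp704 and the predicted gene Gm15862, were at least 27.8-fold lower, with mean wild-type levels of 0.483 to 0.757 CPM. All 6 lie outside the chromosome stretches described later, and apart from Btbd3 they were chosen with their values known. The aryl hydrocarbon receptor gene Ahr, on chromosome 12, was also named after its values were seen. It had 3 counts in the knockouts and 38 in wild type, and it too passed the filter through wild type. Its depth-adjusted ratio of wild type over knockout was 25.8, with a 95% interval of 8.17 to 130.5 that covers counting error only.

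Regulators of small GTPases and the cytoskeleton had 3 lower and 1 higher among 63 tested genes (median -0.05). Shares of all tested genes were 1.86% lower and 0.548% higher. Arhgap25, an inactivator of Rac in blood cells, had 33.5, 25.7, 18.9 and 18.5 CPM in the Ing4 knockout and 30.5, 33.2, 13.4 and 24.6 CPM in the Socs1 knockout, against 77.2, 56.1, 45.2 and 40.2 CPM in wild type (-1.15 ± 0.14, edgeR adjusted p = 0.00186). Rac2, the Rac of white blood cells, had 413 to 686 CPM in the knockouts, against 715, 836, 830 and 940 CPM in wild type (-0.62 ± 0.14, adjusted p = 0.0373). Tagln2, an actin binding protein, had 258 to 496 CPM in the knockouts, against 455, 463, 573 and 628 CPM in wild type (-0.55 ± 0.11, adjusted p = 0.0286). Arhgap15, another Rac inactivator, was higher, at 6.81 to 13.9 CPM in the knockouts, against 2.94, 5.07, 3.28 and 6.54 CPM in wild type (1.23 ± 0.26, adjusted p = 0.0306). The last 3 calls each ended without any of at least 5 libraries, with adjusted p up to 0.157, 0.131 and 0.0943.

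Hoxc4, a homeobox factor of body axis patterning, had the smallest p among the higher genes, with a log2 difference of 4.14 ± 0.37 (edgeR adjusted p = 0.000257). It had 2.09, 2.21, 2.0 and 1.77 CPM in the Ing4 knockout and 2.21, 2.04, 1.51 and 2.31 CPM in the Socs1 knockout, against 0.132, 0.0453, 0.215 and 0.0507 CPM in wild type. Its level was nearly the same in every knockout library, in both treatments. Zic2, a zinc finger factor of forebrain development, had 3.18 to 7.5 CPM in the knockouts, against 1.8, 0.498, 0.484 and 1.07 CPM in wild type (2.36 ± 0.33, edgeR adjusted p = 0.00381).

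Other named rises belonged to no list. Cpq, a secreted carboxypeptidase, had 3.75, 12.2, 4.37 and 10.8 CPM in the Ing4 knockout and 8.41, 4.58, 9.09 and 4.67 CPM in the Socs1 knockout, against 0.351, 0.498, 0.269 and 0.456 CPM in wild type (4.18 ± 0.46, edgeR adjusted p = 0.000796). Slc22a17, a receptor for lipocalin 2, had 6.32 to 13.2 CPM in the knockouts, against 1.89, 2.45, 1.99 and 1.67 CPM in wild type (2.13 ± 0.23, adjusted p = 0.000721). Sort1, a sorting receptor of the Golgi, had 7.7 to 36.1 CPM in the knockouts, against 4.79, 3.53, 3.06 and 2.13 CPM in wild type (2.45 ± 0.39, adjusted p = 0.00805, 0.081 with libraries grouped by culture). These 3 did not overlap between groups, which their naming required within each treatment. Adgrl1, a latrophilin receptor, Col15a1, a basement membrane collagen, Ccdc85c and Crlf2, the receptor chain for thymic stromal lymphopoietin, were higher by 2.47 ± 0.41, 2.25 ± 0.38, 1.95 ± 0.37 and 1.84 ± 0.39 log2 units (adjusted p = 0.0104, 0.0107, 0.0174 and 0.031). Each lost its call without at least wild-type untreated replicate 2, with adjusted p up to 0.0533, 0.0587, 0.0879 and 0.133. Tmem26, a membrane protein, had 81.2, 179, 177 and 281 CPM in the Ing4 knockout and 45.0, 5.72, 50.9 and 13.3 CPM in the Socs1 knockout, against 2.37, 3.21, 7.79 and 7.35 CPM in wild type. Its log2 difference of 4.42 ± 1.01 (adjusted p = 0.0458) came with the widest spread among the named higher genes, and the call ended without any of 9 libraries (adjusted p up to 0.165).

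Toll-like receptor signalling genes had 2 higher and no lower members among 38 tested, with a median of 0.05. The higher share of all tested genes was 0.548%. Irak1, a kinase that relays signals from these receptors, had 142, 141, 135 and 130 CPM in the Ing4 knockout and 144, 141, 155 and 135 CPM in the Socs1 knockout, against 102, 108, 96.6 and 89.9 CPM in wild type. The difference was small, 0.50 ± 0.07, but no knockout library reached down to the wild-type range (edgeR adjusted p = 0.00412). Irf3, a transcription factor that induces interferon, had 40.7 to 53.1 CPM in the knockouts, against 33.3, 33.8, 27.7 and 27.5 CPM in wild type (0.56 ± 0.09, adjusted p = 0.0107, 0.0597 without wild-type LPS replicate 2). Exons of Bcl2l12 on the other strand overlap Irf3.

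Of the 238 lower genes 81 lay on 2 stretches of chromosome. The stretches were located in these data, by the position that best splits each chromosome's differences into a lower and a higher side, so their values are a description. The distal stretch of chromosome 17 runs over chr17:33629090-94878321 (GRCm38) and the proximal stretch of chromosome 12 over chr12:3235504-59191583. The chromosome 17 stretch held 58 lower and 0 higher genes among 382 tested (15.2% lower), and the chromosome 12 stretch 23 lower and 0 higher among 149 (15.4%). All 70 higher genes and 157 lower genes were among the other 12240 (1.28% lower).

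The differences there were small and shared by most genes. Among 288 genes of the chromosome 17 stretch with a mean of at least 5 CPM, 268 (93.1%) were below 0, with a median of -0.35, which is a ratio of 0.782 in knockouts over wild type. Of 116 such genes on chromosome 12, 108 (93.1%) were below 0, with a median of -0.36 and a ratio of 0.781. The medians of the Ing4 knockout were -0.33 and -0.36, and those of the Socs1 knockout, set against the same wild-type libraries, -0.36 and -0.41 (chromosome 17 first). Between the lines, Socs1 knockout minus Ing4 knockout, the medians were -0.0035 and -0.05. Both lines gave the same split on chromosome 17, between Myo1f and Zfp414. On chromosome 12 the split lay after Mia2 in the Ing4 knockout and after Trappc6b, 2 genes earlier, in the Socs1 knockout. In windows of 10 Mb with at least 15 genes, the 10 windows in or across the stretches had medians of -0.42 to -0.30, and the other 201 windows -0.10 to 0.18.

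**Figure D2:**
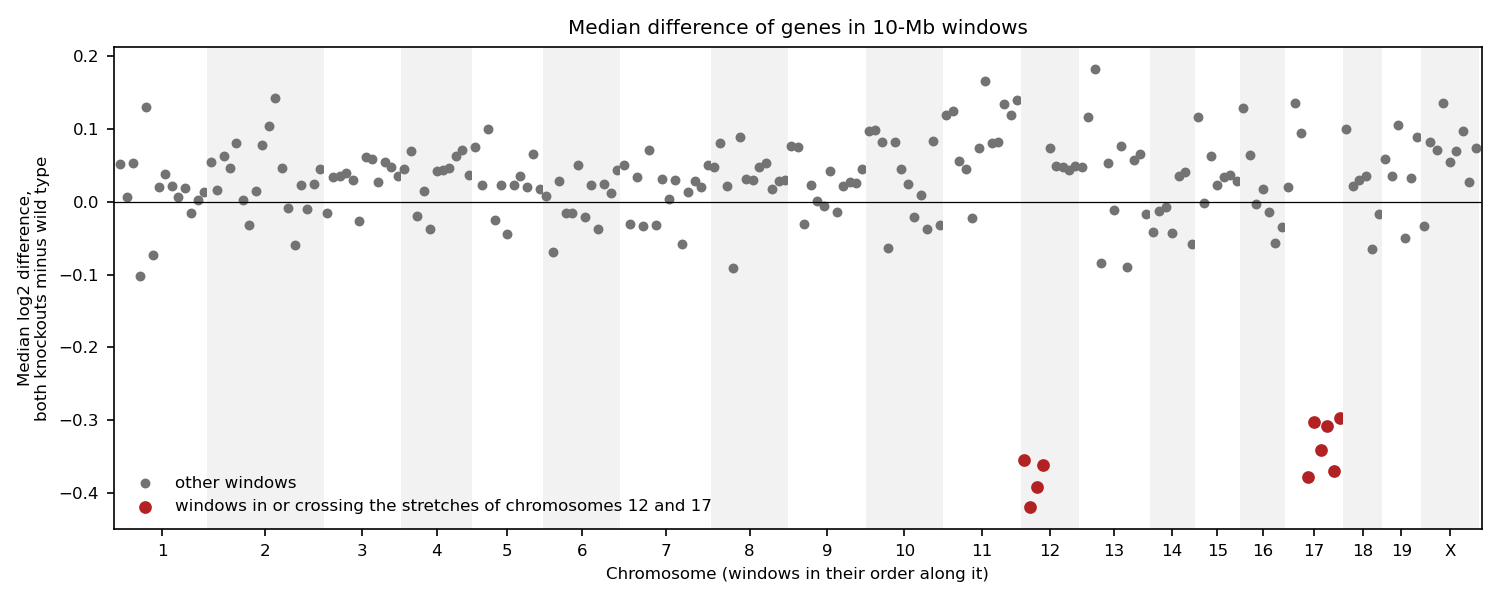
Median log2 difference, both knockouts minus wild type, of the genes in each 10-Mb window with at least 15 genes, ordered along chromosomes 1 to 19 and X. The 10 red windows of chromosomes 12 and 17 lie between -0.42 and -0.30, below the other 201 windows. The stretches they mark were located in these data.

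The stretches were placed by the difference between these edited and wild-type libraries, so a gap between the sides follows largely from that choice. Their levels by library are a description. Centred within each treatment, the median level of chromosome 17 stretch genes was -0.17 to -0.06 log2 units in the 8 knockout libraries and 0.15 to 0.32 in wild type. For chromosome 12 it was -0.17 to -0.02 in the knockouts and 0.21 to 0.30 in wild type. On chromosome 17 wild-type replicate 1 lay below replicate 2 in both treatments, at 0.17 and 0.31 untreated and 0.15 and 0.32 after LPS. DNA copy number was not measured, and its part in these differences was not tested. Leaving out each library in turn moved the medians between -0.39 and -0.32 on chromosome 17 and between -0.38 and -0.33 on chromosome 12. The stretches were held as located in all libraries, so these ranges do not test their position.

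**Figure D3:**
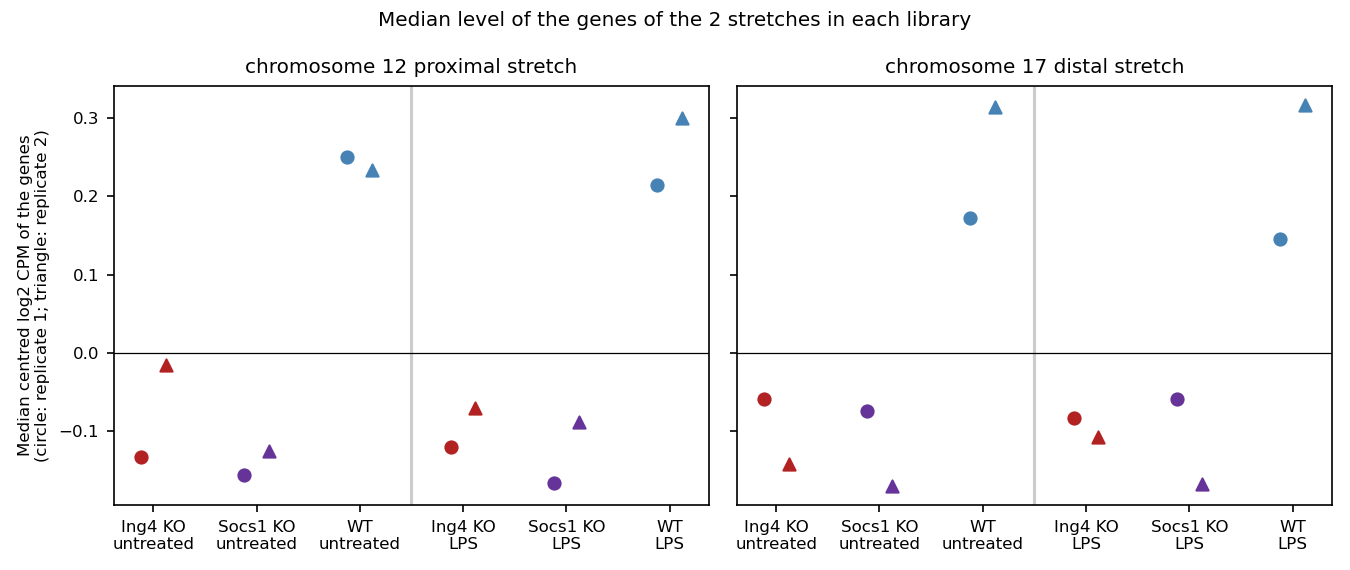
Median centred log2 CPM of the genes of each stretch in every library (red Ing4 knockout, purple Socs1 knockout, blue wild type; circle replicate 1, triangle replicate 2), untreated left and LPS right of the grey line. All 8 knockout libraries lie below 0 and all 4 wild-type libraries lie above it in both stretches, which were located by the difference between these libraries.

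Of the 81 lower genes in the stretches 70 differed by less than 1 log2 unit, and 15 of the 81 were called with libraries grouped by culture. Chromosome 17 holds the major histocompatibility complex (MHC), and 13 of 22 tested genes of MHC class I presentation lie in the stretches. All 22 were below 0, with a median of -0.54 (-0.36 for the 9 outside). The 3 called ones, H2-M3, H2-T23 and Psmb8, all lie in the chromosome 17 stretch, where 15.2% of tested genes were lower. H2-M3, which presents formylated peptides, had 24.8, 24.4, 23.4 and 28.6 CPM in the Ing4 knockout and 14.1, 10.9, 16.5 and 18.8 CPM in the Socs1 knockout, against 72.5, 89.8, 60.9 and 87.4 CPM in wild type. Its log2 difference of -1.95 ± 0.23 (edgeR adjusted p = 0.00118) was well past the stretch's median. H2-T23, the mouse Qa-1 antigen, and Psmb8, an immunoproteasome subunit, had log2 differences of -0.83 ± 0.18 and -0.78 ± 0.16 (adjusted p = 0.0371 and 0.0237, up to 0.206 and 0.129 with a library left out, among them wild-type untreated replicate 2). Olfr98, Olfr755-ps1 and Olfr102, olfactory receptor loci beside H2-M3, were lower as well and with it formed a run of 4 adjacent tested genes.

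Other lower genes in the stretches differed by widely varying amounts. Qpct, a glutaminyl cyclase that modifies chemokine ends, had 0 to 0.285 CPM in the knockouts, against 1.62, 1.99, 2.63 and 4.26 CPM in wild type (-4.59 ± 0.48, edgeR adjusted p = 0.000616). Cebpz, a CCAAT-binding protein in the same run of 5 adjacent lower genes, had 118 to 170 CPM in the knockouts, against 189, 166, 202 and 172 CPM in wild type (-0.41 ± 0.09, adjusted p = 0.044), close to the stretch's median. Its exons overlap Cebpzos on the other strand, and its call ended without any of 10 libraries (adjusted p up to 0.13). Ppp1r18, Ier3 and Odc1 were chosen with their values known. Ppp1r18, an actin-associated phosphatase regulator, averaged 137 CPM in the knockouts and 241 CPM in wild type (-0.82, adjusted p = 9.87e-05). Ier3, an early response gene of the NF-kB list, averaged 109 CPM in the knockouts and 347 CPM in wild type (-1.53, adjusted p = 0.000734). Odc1 on chromosome 12, the first enzyme of polyamine synthesis, averaged 768 CPM in the knockouts and 2227 CPM in wild type (-1.42, adjusted p = 0.0137, 0.155 with libraries grouped by culture).

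Several lists had medians away from 0 and few or no called members. Of 53 tested type I interferon-stimulated genes 51 were below 0, with a median of -0.60. None was called by edgeR, with 5 at an unadjusted p under 0.05, or by limma-voom, and DESeq2 called 2 lower. Without the Socs1 knockout LPS library that stood apart 45 were below 0, with a median of -0.43 and 4 called lower. Unfolded protein and integrated stress response genes had 30 of 33 below 0 and a median of -0.46. None was called by edgeR, with 16 at an unadjusted p under 0.05, while limma-voom called 1 and DESeq2 4, all lower. Ribosomal protein genes had all 39 below 0, a median of -0.22 and 1 edgeR call, Rps7, in the chromosome 12 stretch (adjusted p = 0.0143, 0.0525 with libraries grouped by culture). Glycolysis and hypoxia genes had 29 of 36 below 0, a median of -0.31 and 1 edgeR call, the glucose transporter gene Slc2a1. DESeq2 called 9 of them lower, and edgeR with upper-quartile scaling 3. Oxidative phosphorylation genes had 38 of 40 below 0, a median of -0.10 and 1 edgeR call, Ndufv2, in the chromosome 17 stretch (adjusted p = 0.0298, 0.106 with libraries grouped by culture). In the other direction, the 11 tested genes of the mitochondrial chromosome had a median of 0.61 and no call by edgeR. Of 32 cholesterol and fatty acid synthesis genes 2 were below 0, with a median of 0.24. Of 51 cell cycle and DNA replication genes 8 were below 0, with a median of 0.16. Neither list had a call by edgeR, with 6 and 9 genes at an unadjusted p under 0.05, or by limma-voom, and DESeq2 called 3 cell cycle genes higher and 1 lower. The cell cycle list had a median of 0.04, with 20 of 51 below 0, without the Socs1 knockout LPS library that stood apart. The 17 HBO1 complex and ING family genes had a median of 0.15 and no call by edgeR, with 2 at an unadjusted p under 0.05, or by limma-voom, and DESeq2 called 1 higher. The 41 JAK-STAT and SOCS family genes had a median of -0.01 and 1 edgeR call, the cytokine receptor Il21r, which was lower (adjusted p = 0.0447, 0.375 with libraries grouped by culture). Il21r's list had no edgeR call without a filter, with the filter at a mean of 5 CPM or with a mean for each group. Over all tested genes the median was 0.02, 5947 of 12771 were below 0 and 2.41% were called.

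NF-kB inflammatory target genes had 1 call among 30, Ier3, and a median of -0.18 that became 0.03 without that Socs1 knockout LPS library. MHC class II presentation genes had no call among 14 by edgeR, with 1 at an unadjusted p under 0.05, or by DESeq2 or limma-voom. Their median of 0.00 changes sign with the scaling. Of 42 genes on the macrophage transcription factor list 22 were below 0 with 2 calls, Maf and Cebpz. Cebpz, a CCAAT-binding protein, lies in the chromosome 17 stretch and was close to that stretch's median. Macrophage surface receptors had 2 calls among 65, Ccr1 and Itgb3, and a median of -0.03. The share called among all tested genes was 2.41%. The remaining lists had at most 1 call each and medians between -0.11 and 0.08, counting lists with at least 9 tested members.

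**Figure D4:**
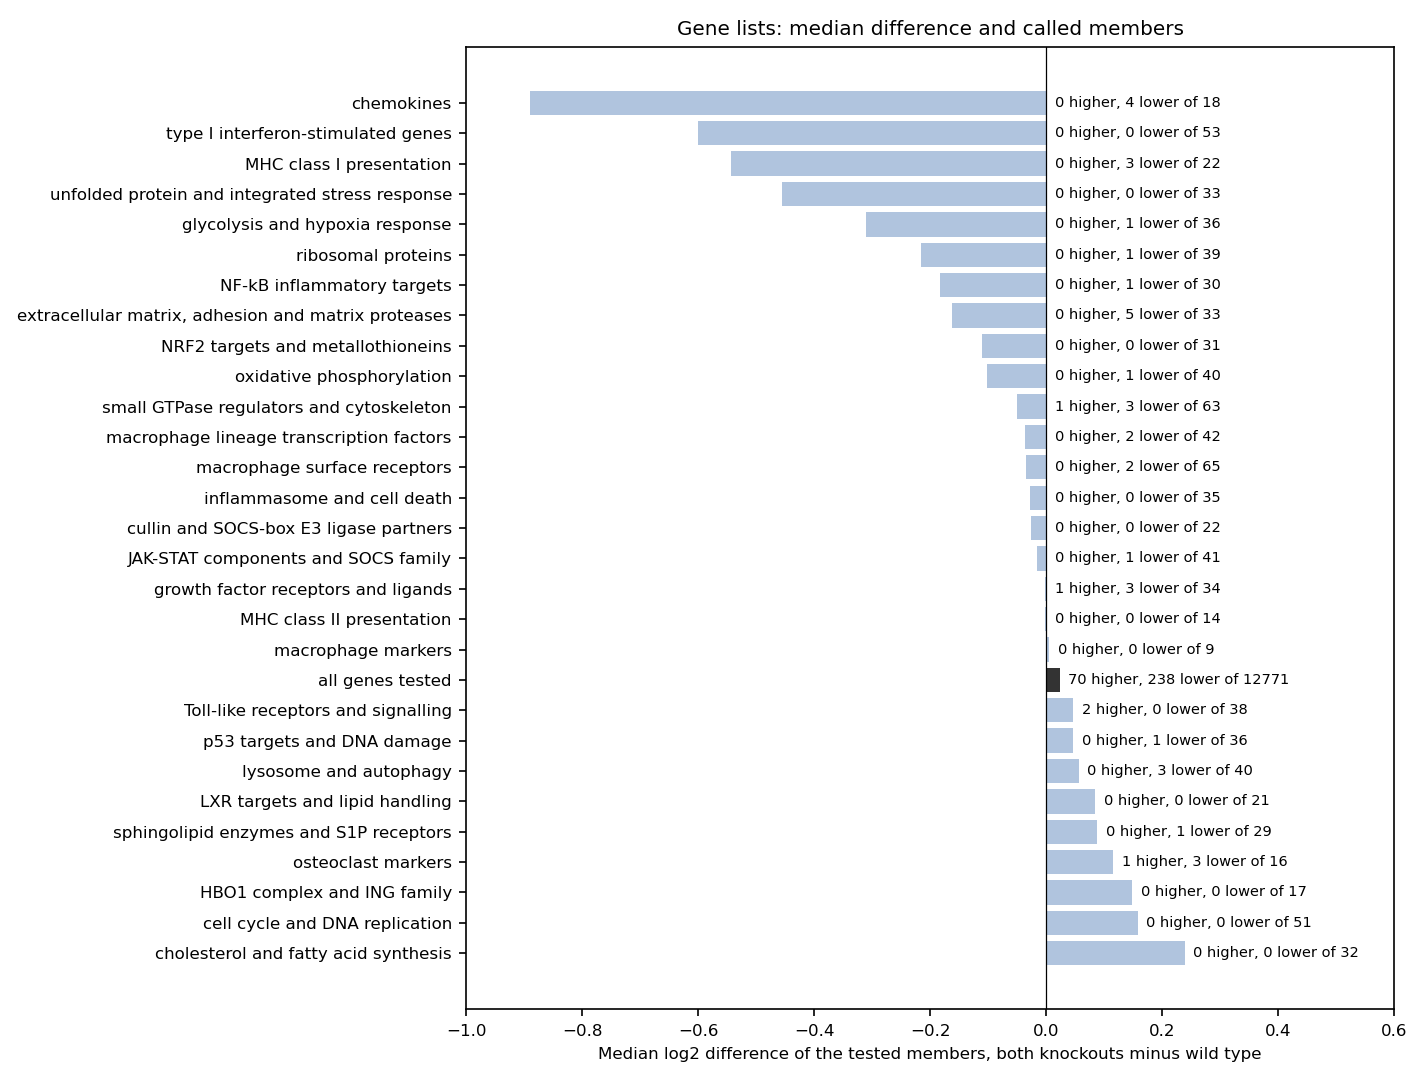
Median log2 difference, both knockouts minus wild type, of the tested members of each gene list with at least 9 tested members (bars; all tested genes in black), with the number called higher and lower beside each bar. Chemokines have the lowest median (-0.89) and cholesterol and fatty acid synthesis genes the highest (0.24).

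The difference between edited and wild-type cells was not shown to depend on LPS. The test of the knockouts' LPS change against that of wild type called 0 genes (0%) by edgeR, and 57 had an unadjusted p under 0.05. That is under 1 gene in 20, so this model, which leaves out the likeness of same-numbered libraries, was conservative. DESeq2 and limma-voom called 0 as well. With libraries grouped by culture (limma-voom) or with a term for each culture (edgeR), both added after seeing the data, 292 and 255 genes had an unadjusted p under 0.05 and again 0 were called. The estimates were wide: the LPS change of the knockouts minus that of wild type was -1.02 ± 1.24 log2 units (SE) for Ccl2 and 2.83 ± 1.34 for Prkg2, which had the smallest p of the named genes.

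The edited lines also differed from each other. Socs1 knockout minus Ing4 knockout, with 4 libraries a side, gave 120 called genes by edgeR (0.94%), 58 higher and 62 lower, and 40 with libraries grouped by culture. Dner, a Notch ligand and the only one of these among the 308, differed from wild type by -2.02 log2 units in the Ing4 knockout and -3.76 in the Socs1 knockout, set against the same wild-type libraries (difference between lines -1.74, edgeR adjusted p = 0.0414, 0.299 with libraries grouped by culture). It was lower than wild type in both lines and was chosen with its values known.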

How the data were processed

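RNA was sequenced in 12 RAW264.7 libraries as single reads of 75 bases from poly(A) RNA, per the labels' protocols. The authors deposited 1 table of counts per Ensembl gene, whole numbers without scaling, per the values in the file. Their other tables held gene start and stop positions, among other deposited values, and were used only to check the build. The tools listed, per the submitters' processing notes, are HTSeq, HISAT, StringTie, DESeq2 and FastQC; neither versions nor settings are stated. The notes name the human build GRCh38, but the identifiers are mouse, and 1028 of 1084 positions (94.83%) equal those of GRCm38. The treatment protocol names HEK293T cells, although the source name and cell line of each sample are RAW264.7. Knockout columns carry a number, so their genotype comes from the titles of the matched samples, and 0 columns were left unmatched.

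Counts were tested with edgeR 4.0.16 in R 4.3.3. Genes were kept by filterByExpr (12771 of 54232; 54079 had a symbol), TMM-scaled and fitted by robust quasi-likelihood. The main model had edited against wild type and treatment. Another model added their interaction, and a further one gave each line its own term. Calls were made at a Benjamini-Hochberg adjusted p of 0.05 over all tested genes, and adjusted p values in the text are edgeR's unless another tool is named. Standard errors equal the size of the log2 difference divided by the square root of F. The common biological coefficient of variation was 0.288. The tests were checked on simulated data with known changes and independently drawn libraries. The main test called 69% of 2-fold and 93% of 4-fold changes among well-counted genes, and 4.71% of its calls were false. The likeness of same-numbered libraries was not simulated, so that check does not cover it.

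Centred levels are log2(CPM + 0.5) minus the gene's mean over the libraries of the treatment. A floor of 3 counts was used for genes without counts, and intervals cover counting error only. The 33 gene lists, and the comparison itself, were chosen with earlier results of these data known. Named genes are Ing4 and Socs1, up to 12 called genes each way with a mean of at least 2 CPM on the higher side and no overlap within either treatment, ranked by the smaller of the 2 lines' differences, and up to 4 called members of each list with at least 2. Genes with predicted or clone names were passed over. This gave 53 genes, of which 1 is not reported here. Alternatives tried were DESeq2 1.42.0, voom of limma 3.58.1, other scalings and filters, stricter calls, blocks for replicate number and culture, subsets of treatments and lines, and each library left out. Promoters came from RefSeq (GRCm38.p6).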

Additional observations from a re-analysis of the deposited data

Results flagged for a closer look

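Checks covered 112 groups of 4 knockout libraries of 1 treatment, over the named genes, the 2 stretches and the median of the remaining genes. In 6 groups a library lay far from the other 3, and chance alone flags about 1 in 20 groups. Of these 4 were in untreated or LPS libraries at under 0.2 CPM, where 1 to 4 counts decide the value: Ccl7 at 0.0434 CPM in Socs1 knockout untreated replicate 1, Maf at 0.199 CPM in Socs1 knockout untreated replicate 2, Itgb3 at 0.0408 CPM in Socs1 knockout LPS replicate 1 and Cers4 at 0.19 CPM in Ing4 knockout LPS replicate 1. The other two were in Socs1 knockout LPS replicate 2, where Notch1 had 4.39 CPM and Chst11 24.9 CPM, and both values lay below those of wild type after LPS.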

How the results depend on the processing

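For both knockouts against wild type the count of 308 called genes stayed within 1.5 times under limma-voom, other scalings, no filter and a mean for each of the 6 groups. Of the 308, limma-voom called 297 again, either other scaling 304, no filter 235 and the group means only 158. The count was 801 with DESeq2 (306 higher and 495 lower, 61.8% lower against 77.3%). It was 196 with a filter at a mean of 5 CPM and 75 at an adjusted p of 0.01. It was 86 against a fold of 1.5 (glmTreat) and 114 with libraries grouped by culture. It was 8 in untreated and 1 in LPS libraries alone, and 130 without the Ing4 line and 504 without the Socs1 line. Of the 308, 75 were called without the Ing4 line and 193 without the Socs1 line. Leaving out each library gave 96 to 465. With the replicate number as a block it was 413. The numbers were not treated as pairs, because differences of same-numbered libraries correlated at only -0.129 to 0.156 between genotypes. The chromosome 12 median was -0.41 without the Ing4 line, and left-out libraries gave -0.38 to -0.33, and for chromosome 17 -0.39 to -0.32. These alternatives were added after seeing the data, with the stretches held as located in all libraries. The test of LPS responses called 0 genes under every alternative run. Socs1 knockout minus Ing4 knockout called 120 genes, and 358 with DESeq2, 207 without a filter, 35 with the 5 CPM filter, 41 at an adjusted p of 0.01, 61 with glmTreat, 54 with a mean for each group, 177 with the replicate block, 40 with libraries grouped by culture (added after seeing the data) and 58 to 129 with each library left out. Of the named genes only Socs1 changed sign, to 0.32 in untreated libraries, 0.12 without the Socs1 line and 0.0084 without Socs1 knockout LPS replicate 1, and it was called in none of these. For the other changes the cause was not tested. Depth limits genes under about 0.122 to 0.169 CPM, the level of 3 counts.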
